A study of Caenorhabditis elegans with 12 samples.

Results

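C-type lectin genes of Caenorhabditis elegans are the subject here: the 220 genes whose symbol in the platform's probe annotation starts with clec- and a digit, out of 17118 genes measured on single-gene probe sets. Where a gene had more than 1 such probe set, the brightest one, judged by its average across the 12 arrays, was used. Whole wild-type N2 (Bristol) animals were compared in 4 groups of 3 arrays: control solution, silver nanoparticles after sulfidation (aged), silver nanoparticles labelled pristine, and the dissolved salt silver nitrate. Exposure began in larvae 12 h old and lasted 48 h, and every silver treatment used its own concentration for a 30% loss of offspring, so doses differ between treatments. Each RNA sample came from a population of 2000 to 3000 animals. The labels do not say whether the arrays of a group came from separate cultures, so p-values measure only the spread between these samples, which may be technical.

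C-type lectin-like domains are protein folds that in some proteins bind sugars with the help of calcium. In C. elegans the clec family is large, many members are secreted, and a number of them are switched on in the intestine when the animals feed on pathogenic bacteria. Some of these immune members are under the control of the p38 MAP kinase PMK-1, and others of further pathways. Many members lie in tandem arrays along the chromosomes.

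All values below are log2 signals, read from arrays scaled to a common median, with signals under 16 (log2 of 4, the floor) set to 16. Array medians before this scaling lay between 119.1 and 135.1 signal units, and 13.7% to 15.8% of probe sets in an array lay at the floor. Markers of the intestine, where many members are expressed, were all present: the mean level of 10 genes lay between 10.56 and 11.06 on the 12 arrays. Signals come from whole animals, so fewer cells of a type and less RNA per cell cannot be told apart. The number of arrays limits the precision throughout. A difference passed the test when limma gave an adjusted p under 0.05 (Benjamini-Hochberg over all 22548 probe sets), and each mean is given with its SD over 3 arrays. Other p-values named as unadjusted come from the same limma fit.

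Most C-type lectin genes were measured at low levels in these animals. The median member had a mean log2 signal of 5.10, against 7.02 over all genes, and 104 of the 220 had a mean under 5. On all 12 arrays 20 members lay at the floor, among them clec-38, which codes for a membrane protein that restrains axon outgrowth, and 122 lay at it on at least 1 array. Only 48 members (21.8%) lay above 6.99, the median level of all probe sets, against 50.4% of all genes. These 48 are called the well-measured members below.

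A few members were among the bright genes of the array. The brightest, clec-63, had signals from 13.82 to 14.23 over the 12 arrays. Next were clec-1 (12.01 to 12.61), clec-65 (11.77 to 12.61), clec-264 (11.46 to 12.35) and clec-76 (11.01 to 11.71). For the well-measured members, the gap between the highest and the lowest group mean had a median of 0.46 and reached 1 in 4 genes. Among members at lower levels the median gap was 0.52. Over all 220 members, 12 of the 19 with a gap of 1 or more had arrays at the floor.

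**Figure D1:**
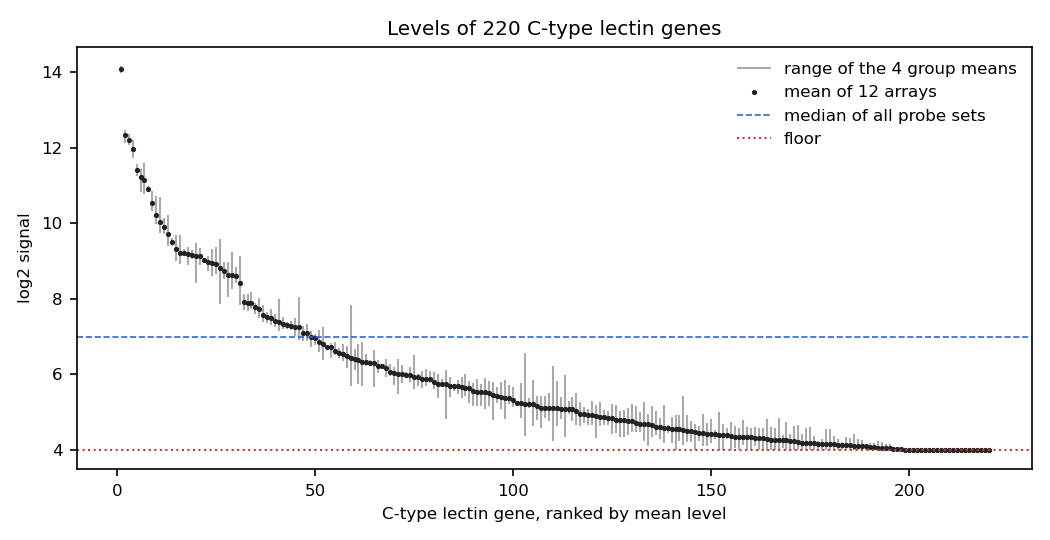
Mean log2 signal (vertical axis) of each of the 220 C-type lectin genes, ranked by level (horizontal axis), with a grey line over the range of the 4 group means, the floor of 4 (dotted) and the median of all probe sets, 6.99 (dashed). Only 48 genes lie above the dashed line, and clec-63 at 14.09 stands highest.

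With silver nitrate, many of the well-measured lectin genes lay higher than in control, although none of the 220 passed the test over all probe sets. At an unadjusted p under 0.05, 28 members differed (12.7%, against 12.3% of all probe sets), a share near the background. The directions were uneven: 22 of them lay higher (10% of members, against 5.17% of probe sets) and 6 lower (2.73%, against 7.13%). Of the 48 well-measured members, 16 lay higher (33.3%, against 7.39% of probe sets above the median level) and 4 lower (8.33%, against 9.9%). The smallest adjusted p was 0.0748 (clec-52, limma), where 30 probe sets (0.133%) were called over the whole array. The 48 genes had a median log2 difference of 0.20, against −0.02 for all genes above the same level, while the median over all 220 members was 0, against −0.01 for all 17118 genes.

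On the single arrays, the median of the well-measured members less their control means was 0.25, 0.31 and 0.09 with silver nitrate, 0.16, 0.14 and −0.055 with aged particles, and −0.02, 0.03 and −0.09 with pristine particles. Control arrays, centred on their own mean, lay between −0.01 and 0.02. Silver nitrate replicate 2 was highest, and replicate 3 lay below 2 of the aged arrays. Replicate 2 also stood apart in RNA integrity: over 3 array control genes, signal at the 3-prime end exceeded that at the 5-prime end by 1.68 log2 units against 1.92 to 2.10 on the other 11 arrays. Without that array 15 well-measured members lay higher and 4 lower at an unadjusted p under 0.05. Intestine markers lay higher as well: 8 of 10 were above control, with a median of 0.31. None passed in limma, and 6 had an unadjusted p under 0.05 (60%, against 12.3% of all probe sets). Their mean level was 10.85 to 11.06 with silver nitrate and 10.56 to 10.69 in control. Germline markers also lay higher (8 of 8, median 0.69, mean level 7.08 to 7.45 against 6.28 to 6.99), with 5 at an unadjusted p under 0.05 (62.5%). So did oocyte markers (7 of 8, median 0.42, 6.83 to 7.02 against 6.06 to 6.73), with 2 (25%). Both coelomocyte markers lay lower (median −0.35, 8.28 to 8.52 against 8.59 to 9.05). Medians were 0.17 for hypodermis (6 of 8 higher), 0.19 for pharynx (5 of 6), −0.20 for sperm (1 of 9) and −0.08 for neurons (3 of 8), and no marker of these lists passed. At an unadjusted p under 0.05 there were 1 of 2 coelomocyte markers (50%) and 2 of 6 for pharynx (33.3%). There were 0 for hypodermis, sperm and neurons. The part of these marker levels in the lectin values was not tested.

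Of 24 members with a role known from earlier work, none passed with silver nitrate. At an unadjusted p under 0.05, 7 lay higher (clec-4, clec-41, clec-49, clec-66, clec-67, clec-83 and clec-87) and 2 lower (clec-52 and clec-60). These 9 are 37.5% of the 24, against 12.3% of all probe sets, and the other 15 did not reach it. With aged particles 4 of the 24 reached it (16.7%, against 8.25%) and with pristine particles 3 (12.5%, against 8.63%). The gene clec-67, an intestinal gene that depends on PMK-1, had signals of 7.89, 8.44 and 8.45 in control and 9.22, 9.58 and 8.93 with silver nitrate. Every silver nitrate array lay above every control array, while the aged (8.99, 8.45 and 8.44) and pristine (8.47, 8.61 and 8.17) arrays overlapped control. The log2 difference from control was 0.98 ± 0.23 (SE), or 1.98-fold (limma adjusted p = 0.139).

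For clec-4, which is induced by bacterial pathogens, the control arrays read 4.69, 6.12 and 6.45 and the silver nitrate arrays 7.93, 8.54 and 7.07. The 3 silver nitrate arrays lay above all 9 others, as the aged (6.54, 6.61, 6.11) and pristine (6.28, 5.63, 5.20) arrays stayed under 6.62. The difference from control was 2.09 ± 0.52 (SE), the largest positive difference from control of any member in these 3 comparisons (4.26-fold, limma adjusted p = 0.145), on a gene whose control arrays spread widely (SD 0.93).

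The gene clec-41, studied in defence against Bacillus thuringiensis, went from 7.40, 7.62 and 7.45 in control to 7.90, 8.23 and 7.98 with silver nitrate. These groups did not overlap, and the difference was 0.54 ± 0.14 (SE; limma adjusted p = 0.151). Against Serratia marcescens, animals need clec-39 and clec-49. Of these, clec-49 averaged 7.76 ± 0.21 in control and 8.14 ± 0.25 with silver nitrate, whereas clec-39 lay at the floor on 2 arrays and reached at most 5.61.

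Bright members without a role named here made up most of the rest. The gene clec-50 read 10.86, 10.999 and 10.97 in control and 11.74, 11.72 and 11.36 with silver nitrate, a difference of 0.66 ± 0.15 (SE; limma adjusted p = 0.126). Its pristine arrays (10.858, 10.78 and 10.67) lay below all 9 others, but the first only just below the control array at 10.86. The pristine difference from control was −0.18 ± 0.15 (SE; limma adjusted p = 0.808). Only 6 protein-coding genes away on chromosome V in the WBcel235 gene table lies clec-258, which read 7.16, 6.72 and 7.31 in control and 8.14, 8.37 and 7.67 with silver nitrate. Its silver nitrate arrays stood above all 9 others (difference 0.99 ± 0.25 SE, limma adjusted p = 0.155).

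Values for clec-66 were 10.23, 10.23 and 10.03 in control and 10.78, 11.09 and 10.32 with silver nitrate. For clec-265 they were 9.96, 9.71 and 9.88, then 10.57, 11.34 and 10.21. In both genes silver nitrate replicate 2 was the highest array of the study and replicate 3 the lowest of its group, yet all 3 lay above the other 9 arrays. The differences from control were 0.57 ± 0.17 and 0.86 ± 0.26 (SE; limma adjusted p = 0.218 for both). The steadiest of these genes was clec-186, at 9.72, 9.70 and 9.70 in control and 10.11, 10.21 and 10.07 with silver nitrate (0.42 ± 0.09 SE, limma adjusted p = 0.108).

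In all, 9 members (4.09%) had their 3 silver nitrate arrays above all 9 other arrays, as had 1.15% of probe sets. They were clec-66, clec-265, clec-186, clec-83, clec-54, clec-258, clec-187, clec-4 and clec-33, of which clec-54, clec-187 and clec-33 are named after their values were seen. No other group had more than 1 member above all the rest: clec-17 in control (0.455% of members, against 0.825% of probe sets), clec-60 with aged particles (0.455%, against 1.1%) and none with pristine particles (0.807% of probe sets). For clec-17 and clec-60 the margin was small. At the other end, clec-50 (only just), clec-61 and clec-174 had pristine arrays below all 9 others (1.36% of members, against 0.67% of probe sets). So did clec-52 with its silver nitrate arrays (0.455%, against 1.56%).

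**Figure D2:**
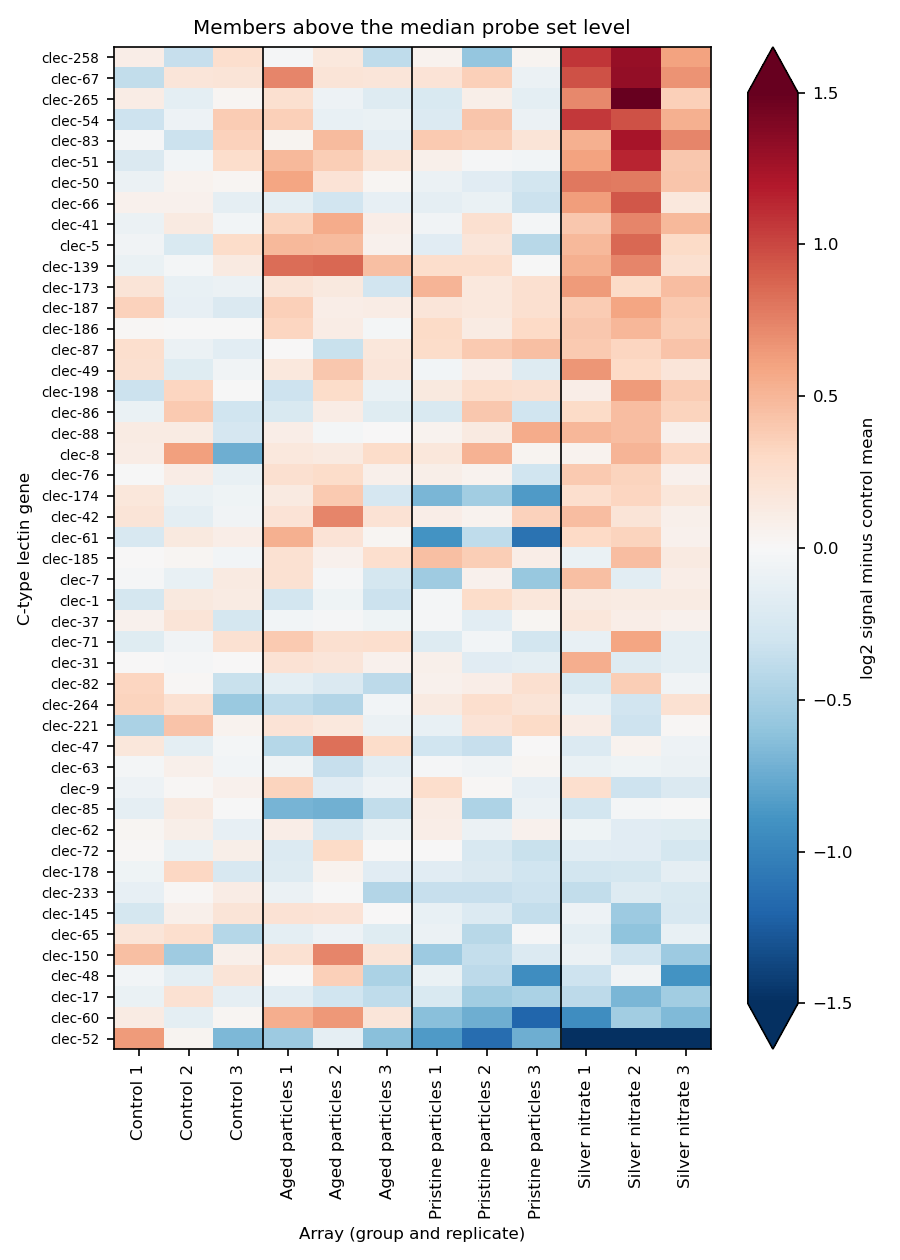
Log2 signal minus the control mean (colour, cut at 1.5 in size) of the 48 well-measured C-type lectin genes (rows, ordered by the silver nitrate difference) on each of the 12 arrays (columns, by group and replicate). The silver nitrate columns are red in the upper rows, from clec-258 at 0.99 downward, and darkest blue at clec-52.

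The most negative difference between silver nitrate and control among the members was that of clec-52, a gene induced by Staphylococcus aureus. Its control arrays read 10.21, 9.61 and 8.90, the aged ones 9.03, 9.44 and 8.94, the pristine ones 8.72, 8.44 and 8.84, and the silver nitrate ones 7.80, 7.71 and 8.09. Silver nitrate arrays lay below all 9 others, and pristine arrays lay below control, whose own arrays spread over more than 1 log2 unit. The difference for silver nitrate was −1.71 ± 0.30 (SE), or 3.27-fold lower (limma adjusted p = 0.0748). It passed in 4 of 21 alternative fits. These were quantile normalisation (limma adjusted p = 0.0495), probe sets above the median level (0.00428), a trend and robust fit (0.0214) and the fit without control replicate 3 (0.0252, difference −2.05). In the rest it did not pass, with an adjusted p of up to 0.298 (the 6 compared arrays alone).

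Control arrays of clec-17 (10.76, 11.08 and 10.73) lay above all 9 exposed arrays. Readings were 10.69, 10.56 and 10.48 with aged particles, 10.62, 10.33 and 10.38 with pristine particles and 10.47, 10.17 and 10.34 with silver nitrate. The differences were −0.28, −0.41 and −0.53 (SE 0.12 each; limma adjusted p = 0.61, 0.391 and 0.135), and these 3 comparisons share the control arrays.

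**Figure D3:**
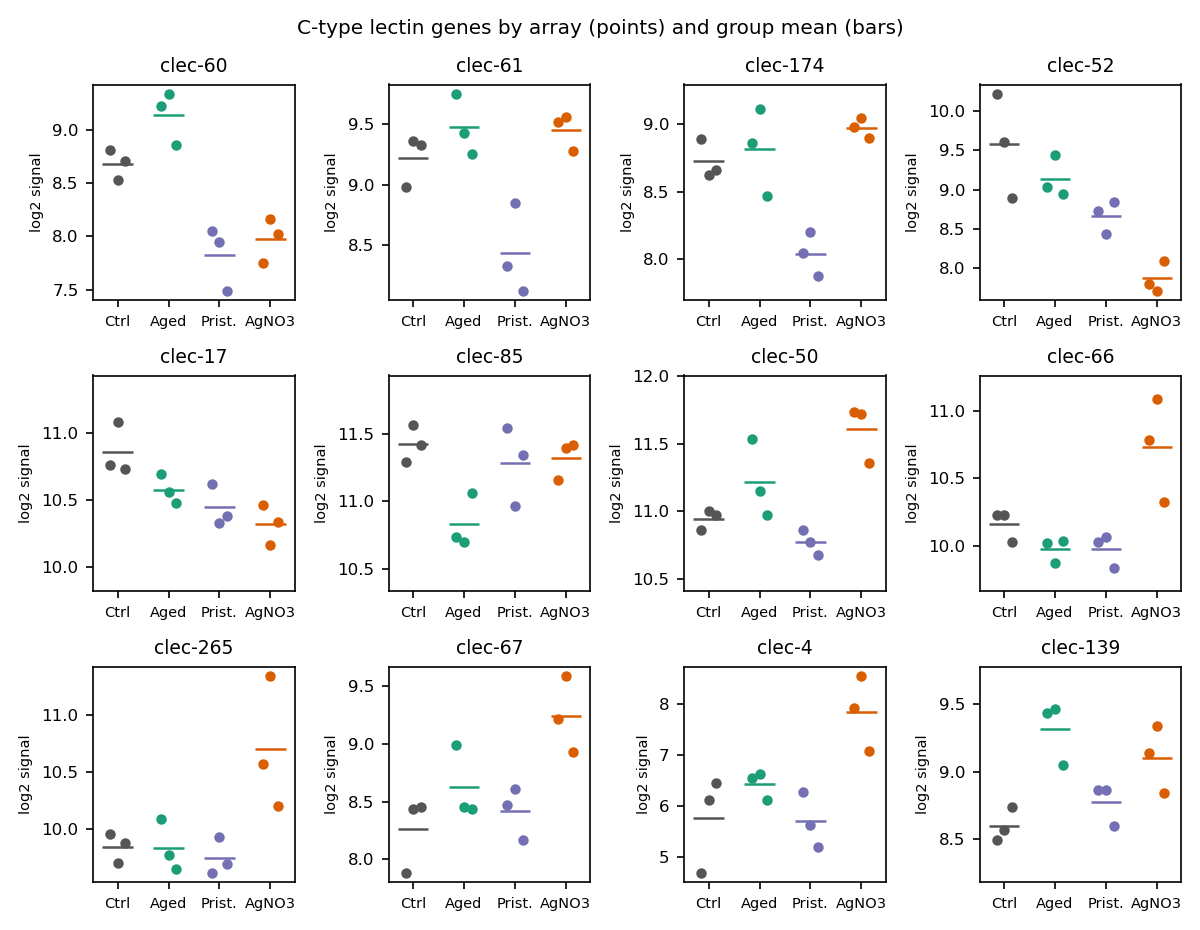
Log2 signal (vertical axes, each with its own range) of 12 C-type lectin genes on every array (points, in replicate order) with the group mean (bars), for control, aged particles, pristine particles (Prist.) and silver nitrate (AgNO3). The genes clec-60, clec-61 and clec-174 are lowest or near lowest with pristine particles, while clec-50, clec-66, clec-265, clec-67 and clec-4 are highest with silver nitrate.

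Under pristine particles, the well-measured lectin genes that stood apart from control lay mostly lower. None of the 220 members passed (limma, smallest adjusted p = 0.227, 0.00443% of probe sets called), and 13 had an unadjusted p under 0.05 (5.91%, against 8.63% of probe sets). Among the 48 well-measured members 6 lay lower (12.5%, against 5.68%) and 2 higher (4.17%, against 4.94%). The 6 were clec-60, clec-174, clec-61, clec-17, clec-52 and clec-233, and in each the pristine arrays lay below every control array. Genes picked by a small p mostly separate in this way, so the share was also read without that choice. Pristine arrays lay below every control array in 12 of the 220 members (5.45%, against 5.98% of all probe sets). The same held for 7 of the 48 well-measured members (14.6%, against 8.06% of all genes above that level). With 1 array left out, the count of well-measured members higher at an unadjusted p under 0.05 changed. It ran from 0 (without control replicate 2 or 3) to 4 (without control replicate 1), and was 1 without any pristine array. The lower count ran from 6 to 8. The family median was −0.01, against 0 for all genes.

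The neighbours clec-60 and clec-61 on chromosome II, with 2 other protein-coding genes between them, were both low with pristine particles. For clec-60, an intestinal gene induced by Staphylococcus aureus and Microbacterium nematophilum, the control arrays read 8.81, 8.53 and 8.71 and the pristine ones 8.05, 7.95 and 7.49. The difference was −0.85 ± 0.18 (SE; limma adjusted p = 0.227). For clec-61 the control arrays read 8.98, 9.37 and 9.33 and the pristine ones 8.33, 8.84 and 8.12 (−0.79 ± 0.20 SE, limma adjusted p = 0.309).

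They differed in the salt. With silver nitrate clec-60 was low as well (7.75, 8.16 and 8.02; −0.70 ± 0.18 SE against control, limma adjusted p = 0.157), whereas clec-61 read 9.52, 9.56 and 9.28, close to control (0.23 ± 0.20 SE). The pattern of clec-61 was shared by clec-174 on chromosome IV, whose pristine arrays (8.04, 8.20 and 7.87) lay below all 9 others, between 8.47 and 9.11. Its difference from control was −0.68 ± 0.16 (SE; limma adjusted p = 0.264). The probe set for clec-174 is of the kind marked as able to hybridise to related sequences, and that for clec-61 is shared by several transcripts. Altogether 15 of the 48 well-measured members had a probe set of either kind, clec-17, clec-41 and clec-50 among them.

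With aged particles no member passed (limma, smallest adjusted p = 0.264, 0.00887% of probe sets called), and 13 had an unadjusted p under 0.05 (5.91%, against 8.25% of probe sets). A fit without aged replicate 2 gave 5 such members. Of the well-measured members 4 lay higher (8.33%, against 4.12% of probe sets above the median level) and 2 lower (4.17%, against 5.46%). The higher count was 1 without aged replicate 2. It was 2 when control replicate 2, control replicate 3 or silver nitrate replicate 3 was left out. The lower count was 7 when control replicate 3 was dropped and 1 when control replicate 2 was. The family median was −0.02, as for all genes (−0.02). A difference of 1 log2 unit or more was seen in 7 members (3.18%, against 1.72% of all genes). With pristine particles it was seen in 2 (0.909%, against 1.3%). None of these was a well-measured member, in either exposure.

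Highest in rank was clec-139, with 8.4954, 8.57 and 8.74 in control and 9.44, 9.46 and 9.05 with aged particles. The groups did not overlap (0.72 ± 0.16 SE, limma adjusted p = 0.264), and silver nitrate arrays lay between 8.84 and 9.34. In the other direction stood clec-85, an intestinal gene that depends on PMK-1, with 11.29, 11.57 and 11.42 in control and 10.73, 10.70 and 11.06 with aged particles. The difference was −0.59 ± 0.16 (SE; limma adjusted p = 0.369), and the pristine (10.97 to 11.54) and silver nitrate (11.16 to 11.42) arrays overlapped control.

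**Figure D4:**
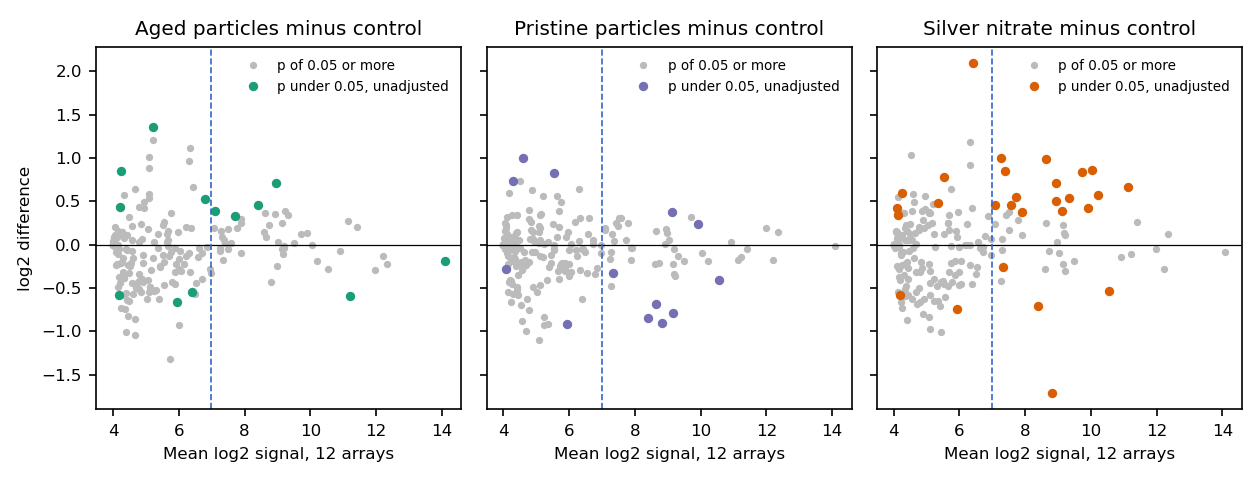
Log2 difference from control (vertical axis) against mean log2 signal over 12 arrays (horizontal axis) for the 220 C-type lectin genes in each exposure, with genes at an unadjusted p under 0.05 in colour and the median level of all probe sets dashed. Right of the dashed line, coloured genes lie mostly above 0 with silver nitrate (16 of 20) and mostly below it with pristine particles (6 of 8).

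Between the exposures, 1 member passed the test: clec-60 lay higher with aged particles than with either other silver form. Its aged arrays (9.22, 9.33 and 8.86) lay above all 9 others, the lowest only just above the highest control array (8.81). The difference from control was 0.46 ± 0.18 (SE) and did not pass (limma adjusted p = 0.55). Against pristine particles the difference was 1.31 ± 0.18 (SE), or 2.47-fold (limma adjusted p = 0.0496, 0.111% of probe sets called). Against silver nitrate it was 1.16 ± 0.18 (SE), or 2.23-fold (limma adjusted p = 0.0494, 0.253% called). Both of these calls lie at the edge of the threshold. The call against pristine particles ended in each of the 12 fits without 1 array (adjusted p = 0.0576 to 0.162), and that against silver nitrate in 11 of them. The sign held in all, with differences of 1.14 to 1.44 and 1.05 to 1.30. With the 6 compared arrays alone the adjusted p was 0.178 and 0.183.

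Aged and pristine particles differed at an unadjusted p under 0.05 in 22 members (10%, against 10.3% of probe sets). The next in order were clec-61 (1.05 ± 0.20 SE, limma adjusted p = 0.122), clec-174 (0.77 ± 0.16 SE, adjusted p = 0.122) and clec-230 (0.87 ± 0.21 SE, adjusted p = 0.182), all higher with aged particles. For clec-230 the aged arrays (7.08, 7.37 and 7.31) stood clear of the pristine ones (6.27, 6.55 and 6.33) and overlapped control (6.28 to 7.19). Aged particles and silver nitrate differed in 26 members (11.8%, against 11%), 18 of them lower with aged particles (8.18%, against 5.23%). These included clec-66 (−0.76 ± 0.17 SE, adjusted p = 0.135) and clec-258 (−1.07 ± 0.25 SE, adjusted p = 0.154).

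Pristine particles and silver nitrate differed in 25 members (11.4%, against 9.54%), with no member passing (limma, 0.00443% of probe sets called). In 22 of the 25 the pristine value was the lower one (10% of members, against 4.04% of probe sets). Ranked first were clec-174 (−0.93 ± 0.16 SE, adjusted p = 0.174), clec-50 (−0.84 ± 0.15 SE, adjusted p = 0.196) and clec-61 (−1.03 ± 0.20 SE, adjusted p = 0.204). In these genes the pristine arrays lay below every silver nitrate array. Over the 3 exposures together, the F test of limma called no member (29 with an unadjusted p under 0.05, 13.2%, against 12.9% of probe sets, with 0.0621% called), and its smallest adjusted p was 0.0642.

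Members at low levels gave few usable values. Of the 172 at or under the median level, 7 had an unadjusted p under 0.05 for aged particles, 5 for pristine particles and 8 for silver nitrate, and 4, 3 and 4 of these had arrays at the floor. These shares (4.07%, 2.91% and 4.65%) lay below those of all probe sets at that level (6.92%, 6.64% and 7.3%). Both clec-12 and clec-22 were free of floor values. In clec-12 the control arrays (6.65, 6.22 and 6.68) lay above the pristine (5.44, 5.66 and 5.71) and silver nitrate (6.01, 5.89 and 5.43) ones. For clec-22 the control arrays (4.63, 5.35 and 5.23) lay below both (6.11, 5.61 and 5.96, then 5.99, 5.85 and 5.71). The limma adjusted p was 0.291 and 0.231 for clec-12, and 0.279 and 0.145 for clec-22.

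With aged particles clec-98 and clec-175 ranked among the smallest p, but rest on few readings. In clec-98 all control arrays and 1 aged array lay at the floor, the other aged arrays reading 5.46 and 5.10 (limma adjusted p = 0.514). It was called against control without aged replicate 3 (adjusted p = 0.0448). In clec-175 2 control arrays lay at the floor and the aged arrays read 4.77, 4.71 and 4.39 (adjusted p = 0.524). Readings of clec-180 were 5.98, 6.68 and 7.0029 with aged particles, 5.05 to 5.38 in control and at most 4.85 with pristine particles, with 1 silver nitrate array at 6.39 and the others at or next to the floor. Against pristine particles, 1 array of which lay at the floor, it was at least 4.58-fold higher (adjusted p = 0.244).

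Tandem neighbours were not uniform. By WBcel235 gene order, 89 members fell into 16 clusters of 3 or more, each gene within 20 kb of the next. The largest, 12 genes on chromosome IV with clec-67, clec-174 and clec-76, spanned levels from the floor to 11.41, and its differences for silver nitrate ran from −0.69 to 0.98, with 5 genes higher and 6 lower. In the chromosome II cluster of clec-63, clec-65 and clec-66, 5 genes ran from −0.29 to 1.04. A chromosome V cluster of 5 genes with clec-54 and clec-56 had all 5 higher with silver nitrate (0.03 to 1.18) and also with pristine particles (0.01 to 0.39). By these brightest probe sets clec-54 alone had an unadjusted p under 0.05 for silver nitrate. A second probe set of clec-55, a gene of this cluster, gave 1.07 for silver nitrate (limma unadjusted p = 0.0209) and −0.06 for pristine particles. That of clec-57, another of its genes, gave 0.12 and −0.78. The clec-60 cluster had 4 of 5 higher with aged than with pristine particles.

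Genes that regulate immune effectors were read from a list of 22, of which 21 were measured. With silver nitrate 1 was called, bar-1, a beta-catenin (0.50, limma adjusted p = 0.0453), with 9 of 21 higher and 12 lower and 7 at an unadjusted p under 0.05 (33.3%, against 12.3% of probe sets). None was called with aged or pristine particles in limma. At an unadjusted p under 0.05 there were 2 with aged particles (9.52%, against 8.25% of probe sets) and 4 with pristine particles (19%, against 8.63%). The kinase gene pmk-1 differed by −0.16, −0.10 and 0.01, its upstream adaptor tir-1 by 0.21, 0.23 and −0.59, and the intestinal GATA factor elt-2 by −0.01, 0.25 and 0.21, for aged particles, pristine particles and silver nitrate. Galectins, a separate family of sugar-binding proteins, were called in none of the 3 in limma. At an unadjusted p under 0.05 there were 1, 0 and 3 of 12 (8.33%, 0% and 25%, against 8.25%, 8.63% and 12.3% of probe sets). With silver nitrate 10 of the 12 lay higher, and their mean level was 11.15 to 11.26, above every control array (10.93 to 11.04).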

How the data were processed

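The deposited files give 1 linear intensity per probe set (22625 on an Affymetrix C. elegans array), from 100 ng of biotin-labelled RNA per the labels' protocols. They had been scaled between arrays by the authors (trimmed mean 500.1 to 500.2); the summarisation method is not given in the sources used here. After 77 control probe sets were removed, arrays were brought to a shared median, floored at 16 and put on the log2 scale. One limma 3.58.1 model (R 4.3.3; a mean per group, 8 residual and 0.939 prior degrees of freedom) gave 6 contrasts and an F test. The members had 236 probe sets, 29 of the 220 used being shared by transcripts and 2 open to related sequences; all matched RefSeq's WBcel235 table, used for names and gene order only. The fit was tested on simulated data. Members, lists and tests were chosen with earlier results of these data known. Named were members with the smallest p in each contrast (10 against control, 6 between exposures, 5 for the F test), the 10 brightest, called ones and 24 with roles, some omitted for length. No sequences are shown.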

Additional observations from a re-analysis of the deposited data

How the results depend on the processing

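For 48 differences of single members, those with the smallest p in each contrast, no sign reversed under the alternatives run. Some fell to 0, among them that of clec-98 for aged particles against control, with a floor of 64. The lowest value was also 0 for clec-175 (aged particles against control and against pristine particles) and for clec-22 (silver nitrate against control). Other differences named above were not recomputed. Of 994 values recomputed for single genes, 943 kept their side of the threshold, 19 passed newly, and 32, all of clec-60, no longer passed. Among probe sets above the median level, 4 members were called for silver nitrate against control, 3 between the particles, 4 for aged particles against silver nitrate, 4 for pristine particles against silver nitrate and 6 by the F test. The family medians were then 0.0383, −0.0459 and 0.20 against control and 0.11, −0.14 and −0.15 between exposures, over fewer genes. With quantile normalisation 1 member was called for silver nitrate against control and 1 by the F test, and the pristine against silver nitrate median was −0.0307. With a trend and robust fit the counts were 1 (silver nitrate against control), 2 (between the particles) and 2 (F test). Calls over all probe sets also changed with the setting, as given below. These counts of members are thus not read as particular to the lectin genes. Both clec-60 calls ended, leaving 0 members, with floors of 1 and 64 and with the 6 compared arrays, and the one against silver nitrate also with the deposited scaling (0 called, median −0.0839, and −0.0285 for pristine particles against silver nitrate). A floor of 1 gave medians of −0.11, −0.0903 and −0.028 against control and −0.0577, −0.13 and −0.0601 between exposures; a floor of 64 gave 0 for aged particles against silver nitrate.

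Leaving out each array in turn, 0 to 1 members were called for aged particles against control, 0 to 1 for silver nitrate against control, 0 between the particles and 0 to 1 for aged particles against silver nitrate. Medians ran from −0.0487 to 0 (pristine against control), −0.0627 to 0 (aged against silver nitrate) and −0.0294 to 0 (pristine against silver nitrate). Over all probe sets, alternatives called 1 to 16 for aged particles against control (2 with all arrays), 0 to 18 for pristine particles (1), 0 to 185 for silver nitrate (30), 5 to 107 between the particles (25), 13 to 182 for aged particles against silver nitrate (57), 0 to 80 for pristine particles against silver nitrate (1) and 22 to 224 by the F test (14). Where the cause is not the smaller number of genes or arrays, it was not tested.

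With the replicate number as a block 0 members were called between the particles (clec-60, adjusted p = 0.0724) and 0 for aged particles against silver nitrate (0.081). Same-numbered arrays of different groups deviated together only weakly (r = −0.10 to 0.09, median 0.06). For arrays with different numbers r was −0.13 to 0.18 (median −0.01), and 7 of 12 arrays were closest to their own number. Whether the numbers pair the samples cannot be told from these values. The F test was not run on the 6 arrays of a contrast. Signals near the floor limit most members.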

Other observations

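Further probe sets of the same gene mostly ran the same way. The 15 members with more than 1 single-gene probe set had 16 further ones, of which 13, 10 and 12 differed from control in the same direction as the brightest, for aged particles, pristine particles and silver nitrate. The second probe set of clec-135 ran against the brightest: it gave −0.90 beside 0.37 for silver nitrate and −0.72 beside 0.34 for pristine particles, the negative values at an unadjusted p under 0.05 in limma. The second probe set of clec-87 gave 0.45 for silver nitrate, beside 0.38 for the brightest.

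A separate set of 22 probe sets carried a C-type lectin gene together with another gene and belongs to no comparison above. None was called in any of the 6 contrasts in limma. At an unadjusted p under 0.05 there were 2 of 22 for each exposure against control (8.25%, 8.63% and 12.3% of all probe sets). Between the particles there were 4 of 22 (10.3% of all probe sets). Against silver nitrate there were 6 for aged particles (11%) and 6 for pristine particles (9.54%). Log2 differences for silver nitrate against control ran from −0.90 to 1.14.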
